A study of Mus musculus with 6 samples.

Results

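The late weak regions are stretches of open chromatin that were listed only at the latest time of a Th17 culture, and with a low peak score. They were chosen by the peak calls themselves. Overlap by 1 bp or more joined the peaks of the 3 deposited lists (naive cells, 48 h and 72 h of Th17 culture) into 81315 merged regions. One was kept when it held a 72 h peak, no naive peak and no 48 h peak, and when the highest score among its 72 h peaks was below 78. This left 11972 regions, which is 14.7% of all merged regions, 23.0% of the 51941 regions with a 72 h peak and 46.3% of the 25841 regions with a 72 h peak below the same score. Presence and score chose these regions, so their class, their score and counts of regions by condition are descriptions and no test was made on them. The lists were unequal in length, with 53259 peaks for naive cells, 40624 for 48 h and 53926 for 72 h. Absence from the short 48 h list was part of the choice. The number depends on the peaks taken. It was 3148 when each list was limited to peaks no narrower than its median, and 7831 when 72 h scores below 40 were left out. Cutting every list by width to 40624 peaks, the length of the 48 h list, gave 5978. That cut takes away the narrowest 72 h peaks, and late weak regions are narrow, with a median of 147 bp against 239 bp for all 72 h peaks. List length and width therefore cannot be told apart by it, and the part of list length was not tested.

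The study followed chromatin accessibility by ATAC-seq, in which the transposase Tn5 cuts open DNA and adds sequencing adapters, in CD4 T cells of C57BL/6 mice called wildtype in the series title. Naive CD4+ T cells were either left untreated or cultured for 48 h or 72 h with plate-bound anti-CD3ε at 0.25 μg/mL and anti-CD28 at 1 μg/mL, which stand in for antigen and costimulation, and with TGF-β at 0.1 ng/mL and IL-6 at 20 ng/mL. There are 2 labelled biological replicates per condition, each prepared from 10000 cells, and 1 peak list per condition was analysed. No difference between conditions therefore has a replicate check, and no p-value is given. The cultures are bulk samples, so a peak seen in few cells and a weak peak seen in many cells cannot be told apart. A missing peak says that none passed the authors' calling, not that the chromatin was closed.

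Th17 cells are helper T cells that secrete IL-17A and IL-17F and protect mucosal surfaces, and they also drive autoimmune inflammation. TGF-β acts through SMAD proteins and IL-6 through STAT3, and together they direct naive cells to this lineage. BATF, IRF4 and other AP-1 partners open chromatin early after activation. Promoters and distal enhancers both appear as ATAC-seq peaks, and promoters rich in CpG dinucleotides are often open in cell types that do not express the gene.

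The labels were checked against marker genes by counting regions at each gene body with 10 kb on either side. All merged regions with a peak numbered 51917 in naive cells, 37425 at 48 h and 51941 at 72 h. A rise from 48 h to 72 h is therefore not particular to any marker. The 8 Th17 markers held 36 regions in naive cells, 51 at 48 h and 68 at 72 h, and 8 of 8 had a region at 72 h. The 6 markers of naive CD4 T cells went from 150 to 59 and 77 regions, and the 5 pan T cell markers from 33 to 24 and 26. The 5 B cell markers held 12, 15 and 26 regions, with 17 of the last at Ebf1 and 0 at Ms4a1, which encodes CD20. The 5 myeloid markers held 13, 3 and 3 regions, with 0 at Csf1r, Lyz2 and Adgre1 in every condition, and the 4 CD8 and NK markers held 8, 5 and 8, with 0 at Ncr1. The part of other cells in the late weak regions was not tested.

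One late weak region covered the start of Il17f, the cytokine gene next to Il17a. It is printed first because it is the highest-scoring late weak region at a Th17 lineage gene whose promoter is in the RefSeq table (build GRCm38.p6). The stretch is the 250 bases before the annotated start, 5′ to 3′, and the peak covered all 250. Capitals mark the TCF/LEF motif CTTTGAT at bases 110 to 116, the RUNX motif TGTGGT, read on the other strand, at bases 170 to 175 and the NFAT motif TGGAAA at bases 200 to 205. Bases are counted from 1 at the 5′ end.
Il17f promoter, chr1:20784271-20784520, minus strand: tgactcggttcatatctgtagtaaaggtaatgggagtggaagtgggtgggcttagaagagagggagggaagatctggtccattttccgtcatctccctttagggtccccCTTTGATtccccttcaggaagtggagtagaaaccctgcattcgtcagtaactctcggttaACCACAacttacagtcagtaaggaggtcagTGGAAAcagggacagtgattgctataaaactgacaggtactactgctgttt
A match is a description of letters and does not show that a factor is bound there.

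A further set shows promoters whose late weak region covered a motif that differed most in frequency between promoters with late weak regions and promoters open in all conditions. These are the ETS motif CCGGAAG, the GC box GGGGCGGGG and the AP-1 motif TGANTCA, searched on both strands. For each, the promoters with the highest-scoring late weak region over the motif are shown, again as the 250 bases before the start, with that motif in capitals.
Prr29 promoter, chr11:106374576-106374825, plus strand: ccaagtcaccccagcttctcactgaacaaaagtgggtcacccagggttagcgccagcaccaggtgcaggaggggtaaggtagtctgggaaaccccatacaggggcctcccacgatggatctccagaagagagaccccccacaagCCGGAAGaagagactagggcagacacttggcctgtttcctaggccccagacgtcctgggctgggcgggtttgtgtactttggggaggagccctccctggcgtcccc
Mamld1 promoter, chrX:71050006-71050255, plus strand: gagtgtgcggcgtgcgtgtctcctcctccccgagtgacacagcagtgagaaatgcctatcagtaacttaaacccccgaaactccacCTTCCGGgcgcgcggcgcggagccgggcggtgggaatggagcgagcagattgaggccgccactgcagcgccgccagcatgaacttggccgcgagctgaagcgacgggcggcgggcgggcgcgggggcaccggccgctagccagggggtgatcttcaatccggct
Espn promoter, chr4:152152390-152152639, minus strand: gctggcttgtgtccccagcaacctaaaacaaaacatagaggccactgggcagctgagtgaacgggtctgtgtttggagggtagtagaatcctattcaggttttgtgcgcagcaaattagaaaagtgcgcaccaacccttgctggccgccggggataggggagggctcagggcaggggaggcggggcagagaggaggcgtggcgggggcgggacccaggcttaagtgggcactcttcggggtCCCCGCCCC
Cdh22 promoter, chr2:165234738-165234987, minus strand: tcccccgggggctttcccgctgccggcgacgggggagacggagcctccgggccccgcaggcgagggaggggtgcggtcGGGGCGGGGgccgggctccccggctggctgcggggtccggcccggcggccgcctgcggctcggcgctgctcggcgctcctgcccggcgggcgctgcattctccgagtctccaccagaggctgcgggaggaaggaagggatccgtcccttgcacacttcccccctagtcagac
Ptpre promoter, chr7:135605578-135605827, plus strand: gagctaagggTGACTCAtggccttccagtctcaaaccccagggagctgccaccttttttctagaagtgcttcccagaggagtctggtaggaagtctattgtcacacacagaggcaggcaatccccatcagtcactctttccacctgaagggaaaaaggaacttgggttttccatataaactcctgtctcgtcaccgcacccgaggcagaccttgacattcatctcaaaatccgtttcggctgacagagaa
Sh2d1b1 promoter, chr1:170277068-170277317, plus strand: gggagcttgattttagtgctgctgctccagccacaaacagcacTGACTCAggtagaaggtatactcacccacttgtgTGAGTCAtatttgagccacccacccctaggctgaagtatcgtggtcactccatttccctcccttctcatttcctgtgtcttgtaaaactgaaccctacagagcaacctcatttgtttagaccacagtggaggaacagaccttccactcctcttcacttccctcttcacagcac
The peak covered bases 1 to 162 at Prr29, 1 to 242 at Mamld1, 212 to 250 at Espn, 1 to 248 at Cdh22, 1 to 79 at Ptpre and 1 to 214 at Sh2d1b1. Ptpre encodes a receptor-type tyrosine phosphatase, Espn an actin-bundling protein and Cdh22 a cadherin. The Sh2d1b1 stretch, before a gene for an adaptor of SLAM family receptors, held 2 AP-1 matches and 1 CpG, whereas the Cdh22 stretch held 30 CpG and the Mamld1 stretch 29.

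A last pair shows promoters of homeobox genes, which encode developmental transcription factors and were looked at after the list of promoters had been seen. Here capitals mark the bases under the 72 h peak.
Msx1 promoter, chr5:37824586-37824835, minus strand: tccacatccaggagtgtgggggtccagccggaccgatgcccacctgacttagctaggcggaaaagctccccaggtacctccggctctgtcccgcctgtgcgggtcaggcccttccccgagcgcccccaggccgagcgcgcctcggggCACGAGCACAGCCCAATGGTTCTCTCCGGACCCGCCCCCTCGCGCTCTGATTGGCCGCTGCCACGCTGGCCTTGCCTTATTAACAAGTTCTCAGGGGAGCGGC
Hoxd11 promoter, chr2:74682073-74682322, plus strand: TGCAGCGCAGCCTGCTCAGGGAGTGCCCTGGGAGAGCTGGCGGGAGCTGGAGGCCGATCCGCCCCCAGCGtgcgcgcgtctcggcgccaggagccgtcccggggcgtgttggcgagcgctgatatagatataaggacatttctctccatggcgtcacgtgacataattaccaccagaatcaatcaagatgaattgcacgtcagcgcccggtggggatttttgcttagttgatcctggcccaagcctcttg
Each of these stretches held 20 CpG. The peak at Msx1 scored 77 and covered 103 of the 250 bases, and the peak at Hoxd11 scored 74 and covered 70.

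At the Il17a and Il17f genes the late weak regions stood among stronger ones. The region at the Il17f start, chr1:20784171-20784653, was 483 bp wide with a score of 76 at 72 h, as deposited by the authors, and no peak in naive cells or at 48 h. Its middle lay 142 bp upstream of the start in the RefSeq promoter table, inside the annotated gene, which runs on to position 20785274. The nearest region already listed before 72 h was 6813 bp away and was shared by 48 h and 72 h. The other late weak region of the locus, chr1:20726068-20726218, had a score of 38 and lay between genes, 4686 bp from Il17a, the signature cytokine gene of Th17 cells. Both genes, with their flanks, had no naive region.

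**Figure D1:**
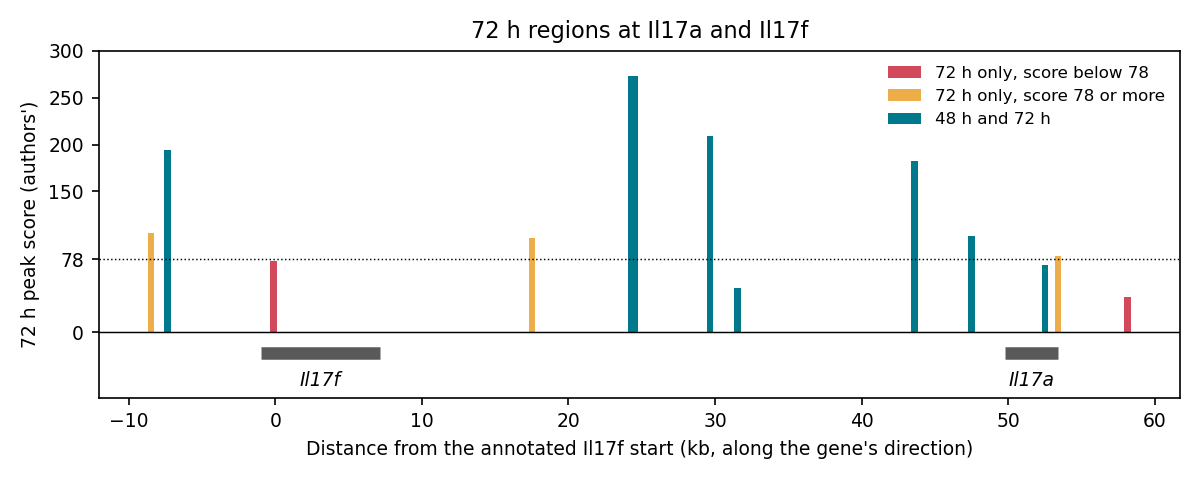
Regions with a 72 h peak around Il17a and Il17f, by distance in kb along the direction of Il17f (x axis) and by the authors' 72 h peak score (y axis); red bars are late weak regions, yellow bars 72 h only regions of score 78 or more, blue-green bars regions shared by 48 h and 72 h, grey bars gene bodies, and narrow bars are widened to be visible. The late weak region at the Il17f start has a score of 76, just under the dotted limit of 78, and the region near Il17a has a score of 38, while the tallest shared region between the genes reaches 273.

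Around these 2 late weak regions, the 72 h list held 7 regions shared with 48 h, with 72 h scores of 47 to 273, and 3 regions seen at 72 h only with scores of 81, 100 and 106. The late weak region at Il17f was the only one of the 12 drawn regions that overlapped the Il17f promoter window. Most of the accessible regions between the genes were thus listed by 48 h, and the Il17f start was listed at 72 h only. The score of 76 lies 2 below the limit, and with a limit of 60 this region is not a member.

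The widths of late weak regions ran from 100 to 836 bp with quartiles of 114, 147 and 197 bp. Regions seen at 48 h only were narrower still, with quartiles of 109, 137 and 184 bp. Regions at 72 h only with a score of 78 or more, called late strong here, numbered 2904 and had a median width of 227 bp. The 10674 regions shared by 48 h and 72 h, called stable gains, had a median of 300.5 bp, and the 20812 regions present in all 3 conditions, called constant, a median of 604 bp. Scores of the late weak regions ran from 30 to 77 with quartiles of 38, 46 and 56. At the limit itself, the 52 late weak regions with a score of 77 had a median width of 178 bp and 2 lay near a gene end, and the 76 late strong regions with a score of 78 had a median width of 195 bp and 6 lay near a gene end.

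The share of 72 h regions that were seen at 72 h only was highest at the lowest scores and lowest at the highest, a description of the 2 values by which the regions were chosen. Of the regions with a 72 h score of 30 to 34, 59.9% were at 72 h only (95% interval 58.2 to 61.5%, 1998 of 3338). It was 47.8% at 40 to 44, 49.3% at 45 to 49, 43.2% (41.9 to 44.6%) at scores of 50 to 59 and 35% (33.9 to 36.1%) at 60 to 77. Above the limit it was 24.4% at 78 to 99, 13.4% at 100 to 149 and 1.05% (0.825 to 1.32%) from 200 upward. Constant regions went the other way, from 10.3% at scores of 30 to 34 to 83.9% from 200 upward.

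**Figure D2:**
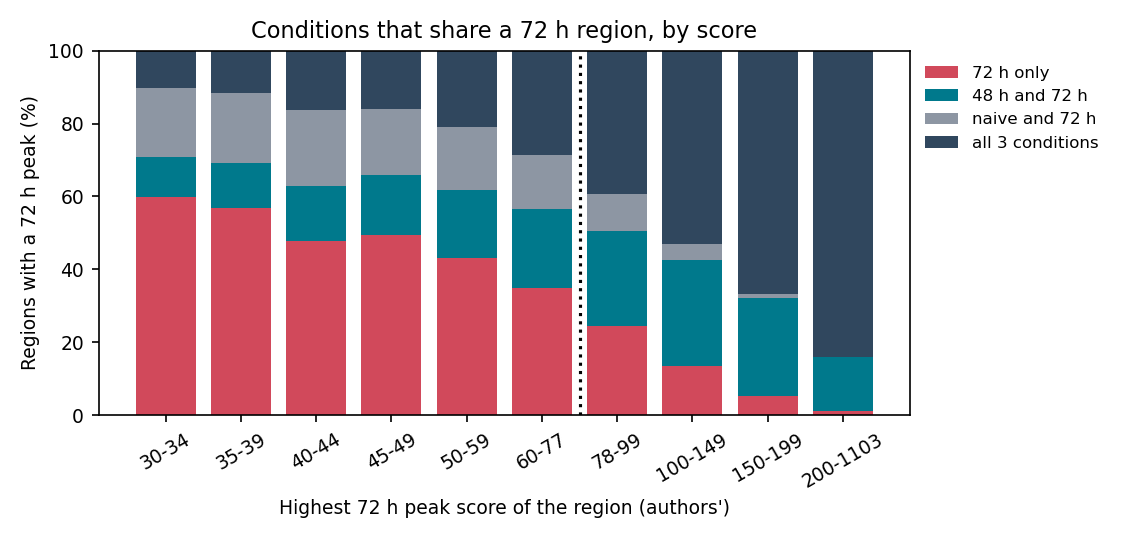
Share of regions with a 72 h peak (y axis, %) that were seen at 72 h only, shared with 48 h, shared with naive cells or present in all 3 conditions, by the highest 72 h peak score of the region (x axis); the dotted line marks the limit of 78. The 72 h only share falls from 59.9% at scores of 30 to 34 to 1.05% from 200 upward, and the share present in all 3 conditions rises from 10.3% to 83.9%.

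Most late weak regions lay away from the ends of genes. By the middle of the region, 6076 of 11972 (50.8%, 49.9 to 51.7%) lay inside a protein-coding gene, 4632 (38.7%, 37.8 to 39.6%) between genes and 1264 (10.6%, 10 to 11.1%) within 1 kb of either end of a gene. Constant regions lay near a gene end in 46.5% (45.8 to 47.2%). Late strong regions did so in 4.65% (3.91 to 5.48%), less than the late weak ones and with intervals that do not overlap. Close to the late weak regions were regions at 48 h only, with 10.9% (9.90 to 11.9%), and regions seen in naive cells only, with 10.1% (9.69 to 10.5%). Stable gains, with 9.15% (8.61 to 9.72%), were close as well. These exact Clopper-Pearson intervals cover counting error only. The late weak share was 18% when each list was limited to peaks no narrower than its median. The difference between late weak and late strong regions, 5.91 percentage points, was 2.50 points when a 72 h peak counted as new unless at least 50% of it was covered by a naive or 48 h peak.

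Late strong regions had the lower share in each of 4 ranges of width. Among regions of 100 to 149 bp, 9.86% of late weak and 5.29% of late strong regions lay near a gene end. Among those of 300 to 900 bp the shares were 17.1% (14.3 to 20.2%) and 5.01% (3.54 to 6.87%). Split after seeing the data, the late weak regions at the 6 scores where 72 h values pile up (31, 38, 46, 55, 63 and 72) had 6.76% (6.05 to 7.53%) near a gene end and the others 12.9% (12.1 to 13.6%). Within the late weak regions the share was 12% at scores of 30 to 34, 15.0% at 40 to 44 and 7.01% at 60 to 77. Among 72 h regions below the same score limit, 11.7% (10.7 to 12.7%) of the stable gains and 21.6% (20.5 to 22.8%) of the constant regions lay near a gene end.

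**Figure D3:**
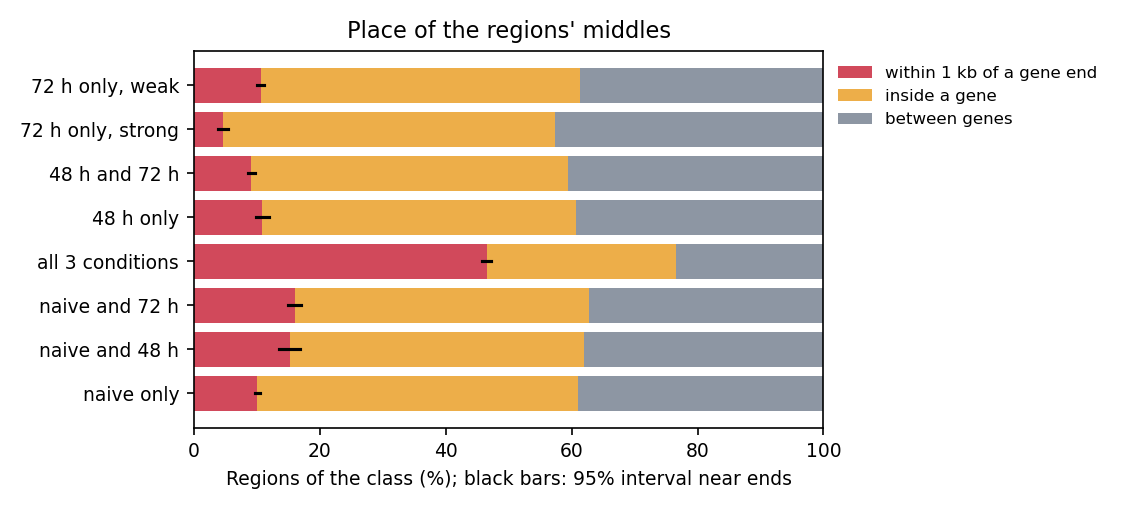
Place of the regions' middles (x axis, % of the regions of a class) for each class of regions (y axis), with red for within 1 kb of a gene end, yellow for inside a gene and grey for between genes; the black bars are 95% intervals of the near-end share. Late weak regions have 10.6% near gene ends, above the 4.65% of late strong regions and below the 46.5% of regions in all 3 conditions.

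The gene table has no strand, so annotated starts were taken from the RefSeq promoter table. Of 11573 late weak regions on chromosomes with such starts, 942 (8.14%, 7.65 to 8.65%) had their middle within 1 kb of one, against 2.61% (2.05 to 3.27%) of late strong regions, 6.96% of stable gains and 43.0% of constant regions. The median distance to a start was 32800 bp for late weak and 5800 bp for constant regions. The order of the classes by starts was the same as by gene ends for these 4 classes.

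By their median gap, late weak regions lay farther from earlier open chromatin than the other classes except late strong regions. At short range they did not lie farther than stable gains. The gap to the nearest region of naive cells or 48 h had a median of 5610 bp, and 2837 regions (23.7%, 22.9 to 24.5%) were within 1 kb of one. Late strong regions were farther, with a median of 7590 bp and 13.3% (12.1 to 14.6%) within 1 kb. This difference was not seen in all late weak regions. The 4527 with a score of 31, 38, 46, 55, 63 or 72, values at which 72 h scores pile up, had 12.5% (11.6 to 13.5%) within 1 kb and the rest 30.5% (29.4 to 31.5%), a split chosen after seeing the data. Measured to the nearest other such region, stable gains had 4960 bp and 24.2%, regions at 48 h only 3650 bp and 32.3%, constant regions 3410 bp and 35.8%, and naive only regions 2060 bp and 39.6%. Within 10 kb the shares were 63.3% for late weak and 57.7% for late strong regions. With peaks no narrower than the median of their list, the late weak median gap was 10300 bp.

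The nearest earlier region was a stable gain for 3127 late weak regions (26.1%, 25.3 to 26.9%), while stable gains made up 16.1% of the naive or 48 h regions. It was a constant region for 29.3%, which make up 31.3%, and a naive only region for 26.9% (26.1 to 27.7%), which make up 35.3%. Stable gains were therefore nearest neighbours more often than their number alone gives, and naive only regions less often, although regions of different classes are also spread differently along the genome. Taken one class at a time, 7.82% of late weak regions had another late weak region within 1 kb, 8.42% a constant region, 7.36% a stable gain and 6.09% a naive only region.

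Late weak regions were spread over all autosomes and the X chromosome. They made up from 11.5% of the merged regions on chromosome 17 to 16.7% on chromosome 14, and 12.9% on X. Among 100 kb windows the highest count was 8 of 13 regions, at chr7:113100001-113200000, which holds Arntl, a core factor of the circadian clock. Of all windows with any region, 6431 held no late weak region and 4564 held 1.

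The 5 highest-scoring and the 5 widest members were not at Th17 lineage genes. The 5 with the highest score, all at 77 and taken by width, had Zfp423, Spryd7, Hsd17b3, Clybl and Stard7 as nearest genes. The one at Zfp423, chr8:87958490-87959156, lay inside the gene, 772 bp from a start, and 159324 bp from any naive or 48 h region. Among the 5 widest, the region at Coch was 819 bp wide with its middle 139 bp from the start, and the region at Stxbp6 was 776 bp wide, 198 bp from the start and 743724 bp from the nearest naive or 48 h region. These wide members near starts thus stood far from earlier open chromatin.

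Promoters with a late weak region were few. The RefSeq table gives a window from 250 bases before to 50 bases after each start for 17492 of the protein-coding genes, with 21263 windows. Late weak regions overlapped 350 windows (1.65%) of 339 genes (1.94%), and 326 of the windows held no region of any other class. Constant regions overlapped 9860 windows, stable gains 468, naive only regions 403, regions at 48 h only 92 and late strong regions 51. Only 6 windows were covered whole by a late weak region, among them that of Il17f. The median score of the 337 regions involved was 44.

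These promoters were rich in CpG but less so than promoters open in all conditions. The median number of CpG in the 300-base window was 17 with a late weak region, 23 with a constant region and 21.5 with a stable gain. It was 26 with a late strong region, 16.5 with a region at 48 h only, 9 with a naive only region and 4 with no region. At least 20 CpG were found in 43.7% (38.4 to 49.1%) of the late weak windows, 63.4% (62.4 to 64.3%) of the constant windows and 7.45% (6.94 to 7.99%) of the windows with no region. This share was 54.9% (40.3 to 68.9%) with a late strong region and 44.6% (34.2 to 55.3%) with a region at 48 h only, close to the late weak windows. Over all 21263 windows it was 35.9%. The Il17f window, with 4 CpG and a GC content of 46.3%, was at the low end of the late weak windows, whose median GC content was 62.7%.

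**Figure D4:**
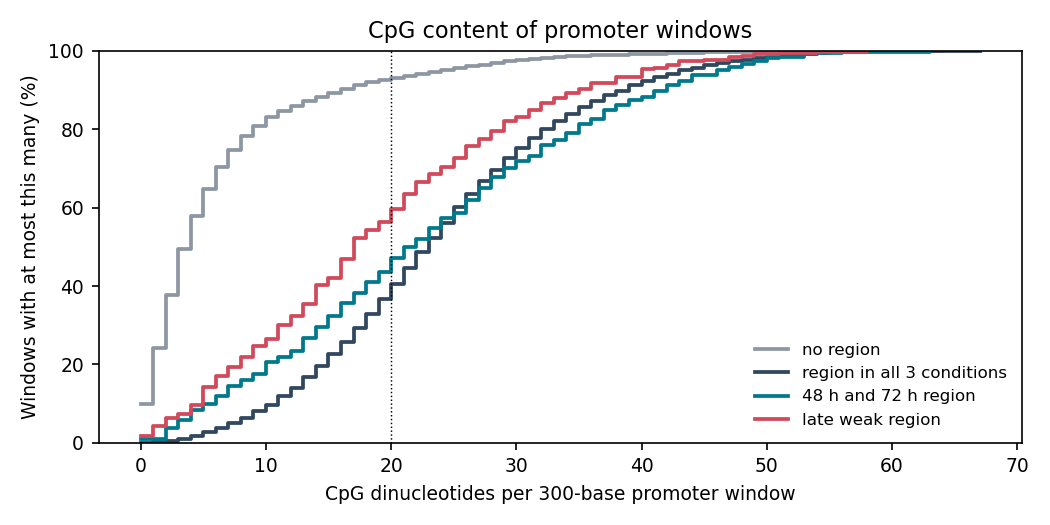
Cumulative share of promoter windows (y axis, %) with at most a given number of CpG dinucleotides in the 300-base window (x axis), for windows with no region, a late weak region, a stable gain and a region in all 3 conditions. The late weak line lies between the windows with no region, with a median of 4 CpG, and those open in all 3 conditions, with a median of 23.

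Of 15 motifs searched, 3 differed most between late weak and constant promoter windows, and their examples are printed above. The ETS motif CCGGAAG stood in 3.14% (1.58 to 5.55%) of late weak windows and 21.5% (20.7 to 22.3%) of constant windows, against 11.6% of all windows, 2.99% of windows with a stable gain and 2.64% of windows with no region. The GC box GGGGCGGGG stood in 18% (14.1 to 22.4%) of late weak, 24.9% of constant and 15.4% of all windows. The AP-1 motif TGANTCA stood in 9.14% (6.34 to 12.7%) of late weak, 3.82% (3.45 to 4.22%) of constant, 12% (9.17 to 15.3%) of stable gain and 6.99% of all windows. It also stood in 9.91% of windows with no region. The STAT motif TTCNNNGAA stood in 6.00% of late weak and 7.69% of all windows. The median GC content was 62.7% in late weak, 62.3% in constant and 64.3% in stable gain windows, and 48.7% in windows with no region. The part of base composition in the motif shares was not tested.

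At least 1 late weak region lay within 10 kb of 6595 of 21887 protein-coding genes (30.1%), and late weak regions were 8651 of the 61425 regions at such genes (14.1%). Most of these genes, 4396, had 1. The highest number was 12, at Arhgap26, Babam2, Bach2 and Pde4d, followed by 10 at each of 7 genes, among them Abtb2, Arhgap10, Dlg2, Itpr1, Rabgap1l and Snd1. Bach2, a repressor of effector genes in naive lymphocytes, had 12 late weak among 74 regions, 28 of them naive only. Babam2, a subunit of the BRCA1-A complex, had 12 among 24. Pde4d encodes a cAMP phosphodiesterase and Itpr1 an IP3 receptor of the endoplasmic reticulum.

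Longer genes had more late weak regions, and a larger part of their regions was late weak. The share of regions was 10.9% (10.3 to 11.6%) at genes of up to 10 kb, 14.6% (14.2 to 15.1%) at 50 to 200 kb and 20.3% (18.6 to 22.1%) over 500 kb. The density went down at the same time for the longest genes, from 0.757 to 0.221 late weak regions per 100 kb of gene and flanks, and all regions became sparser, from 7.61 to 1.11 per 100 kb.

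At the Th17 lineage genes, 11 of 18 (61.1%) had a late weak region, against 30.1% of all protein-coding genes. Late weak regions were 19 of the list's 134 regions (14.2%, 8.76 to 21.3%), a share near the 14.1% of all genes. Counting gene bodies alone, 7 of the 18 genes had a late weak region, against 20.3% of all genes. The gene counts of the lists below compare with the same 30.1%, and genes differ in how many regions they hold. Rora, a nuclear receptor gene of Th17 cells, had 5 of 43 with scores of 31 to 46. Il1r1, the IL-1 receptor, had 3 of 11 with scores of 38, 58 and 67. Ccr6, a chemokine receptor of Th17 cells, had 2 with scores of 40 each, 507 bp and 465 bp from stable gains. Hif1a, a hypoxia factor, had 2 as well, 1 of them over the low-coordinate edge of the gene, 6504 bp from the start in the promoter table.

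The remaining lineage genes with a late weak region had 1 each. The region at Il23r, the IL-23 receptor, had a score of 50, that at Il21, a helper cytokine, 41 and that at Il10, an anti-inflammatory cytokine, 61. At Maf, a factor that promotes Il10 and Il21, a region with a score of 46 lay near a gene end, 203 bp from a stable gain. Ahr, the aryl hydrocarbon receptor, had 1 of its 2 regions in this class, 4386 bp outside the gene. Among the genes with 0 were Il9, Ccl20, Il12rb1, Tmem176a and Tmem176b, and also Il22, which had no region of any class. Among the 19 regions, 3 lay near a gene end, at Il17f, Maf and Hif1a.

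The list of naive and quiescent T cell genes had late weak regions at 11 of 18, with 36 of 353 regions (10.2%, 7.25 to 13.8%). Beside Bach2, Foxp1, which keeps T cells quiescent, had 9 of 100, of which 48 were naive only, and Foxo1 and Il6ra had 3 each. The Il6ra region near a gene end, at the IL-6 receptor gene, had a score of 52. T cell activation genes had them at 12 of 18, with 30 of 214 regions (14.0%, 9.66 to 19.4%). Cd28, the costimulatory receptor, had 5, Cd44, an adhesion receptor, and Nfkb1, an NF-κB subunit, 4 each and Icos, a CD28 relative, 3. The region in Tnfrsf4, which encodes OX40, had a score of 70 and its middle 888 bp from the annotated start.

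The factors and pathways of Th17 induction were near the background as well. BATF, IRF and AP-1 factor genes had 10 of 95 regions (10.5%, 5.16 to 18.5%) at 8 of 14 genes, led by Batf3 with 3. Single late weak regions near gene ends lay at Batf3, with a score of 38, and at Jun, with a score of 36, which lay 224 bp from a stable gain and 156 bp from a constant region respectively. IL-6 and STAT3 pathway genes had 21 of 137 (15.3%, 9.75 to 22.5%) at 9 of 15 genes, with 4 each at Jak1, a receptor kinase, Ptpn2, a phosphatase of JAK and STAT proteins, and Stat5b. Stat3 itself had 1, and Socs3, its feedback inhibitor, 0.

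The TGF-β pathway and regulatory T cell list had 28 of 218 regions (12.8%, 8.71 to 18%), with an interval that includes the 14.1% of all genes. They were spread over 15 of 16 genes (93.8%), against 30.1% of all genes. Itgae, an integrin chain, Nrp1, Skil, an inhibitor of SMAD proteins, Tgfb1 and Tgfbr2, the ligand and a receptor, had 3 each, and Smad7 had 0. The regions near gene ends at Skil and Tgfb1 had scores of 46 and 52. Foxp3, the regulatory T cell factor, had 1.

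Genes of other helper lineages had late weak regions too. Th1 genes had 15 of 79 regions (19.0%, 11.0 to 29.4%) at 9 of 12 genes, with 5 at Stat4, which transmits IL-12 signals, 3 at Il12rb2, an IL-12 receptor chain, and 1 at Tbx21, the Th1 factor T-bet. Those near gene ends were at Cxcr3, Ccl4 and Gzmb, with scores of 44, 30 and 36. The region counted at Ccl4 overlaps the promoter window of its neighbour Ccl3 and cannot be assigned to one of them. Ifng had 0. Th2 genes had 10 of 58 (17.2%, 8.59 to 29.4%) at 7 of 10 genes, with 3 at Epas1, and follicular helper genes 12 of 98 (12.2%, 6.49 to 20.4%) at 7 of 10, with 5 at Tox and 1 at Btla, near a gene end, with a score of 33. Growth and proliferation genes had 15 of 134 (11.2%, 6.40 to 17.8%) at 7 of 16, with 6 at Cdk6, a cell cycle kinase, and 0 at Myc. All these intervals include the 14.1% of all genes except that of the naive list, which ends just below it. Of the regions with a 72 h peak at its genes, which leaves out regions lost from naive cells, the naive list had 21.3% (15.4 to 28.3%) in this class against 21.6% at all genes.

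Pan T cell genes had the smallest share among the T cell lists, with 15 of 184 regions (8.15%, 4.63 to 13.1%) at 8 of 14 genes, an interval below the 14.1% of all genes. Among regions with a 72 h peak it was 15 of 97 (15.5%, 8.92 to 24.2%), an interval that includes the 21.6% of all genes. Ets1, a lymphocyte factor, had 4, and Cd3d, Cd3e, Cd3g and Cd4 had 0. Housekeeping genes had 3 of 54 (5.56%, 1.16 to 15.4%) at 3 of 10 genes, 1 each at Actb, Gapdh and Polr2a, and the one at Gapdh had a score of 68.

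The list with the largest share was that of very long genes known mainly from neurons and other non-lymphoid tissue. It had 36 of 118 regions (30.5%, 22.4 to 39.7%) in this class at 13 of 28 genes, against 20.3% (18.6 to 22.1%) at all genes over 500 kb. Among regions with a 72 h peak the list had 42.4% (31.7 to 53.6%) and all genes over 500 kb had 33.1% (30.5 to 35.7%), with intervals that overlap. Dlg2, a postsynaptic scaffold gene, had 10 of 27. Erbb4, a neuregulin receptor gene, had 4 of 5, of which 2 lay near a gene end with scores of 33 and 46 and middles 472 bp and 22 bp from the start. Without Dlg2 the list had 26 of 91 (28.6%, 19.6 to 39.0%). The remaining 15 genes of the list had 0 late weak regions, among them Dmd, with 1 region in all, and Lrp1b, with no region of any class.

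Marker lists of other cell types had few regions in all, and their intervals are wide and include the 14.1% of all genes. B cell markers had 8 of 37 regions (21.6%, 9.83 to 38.2%) at 3 of 8 genes, 6 of them at Ebf1, a B lineage factor, and without Ebf1 2 of 17 (11.8%, 1.46 to 36.4%). Ebf1 also had 3 late strong regions and 7 stable gains. CD8 and NK markers had 3 of 25 regions (12%, 2.55 to 31.2%) at Gzma, Klrd1 and Klrk1. Myeloid markers had 1 of 21 (4.76%, 0.120 to 23.8%), at Cd14, and genes of unrelated tissues and erythroid cells 2 of 13 (15.4%, 1.92 to 45.4%).

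**Figure D5:**
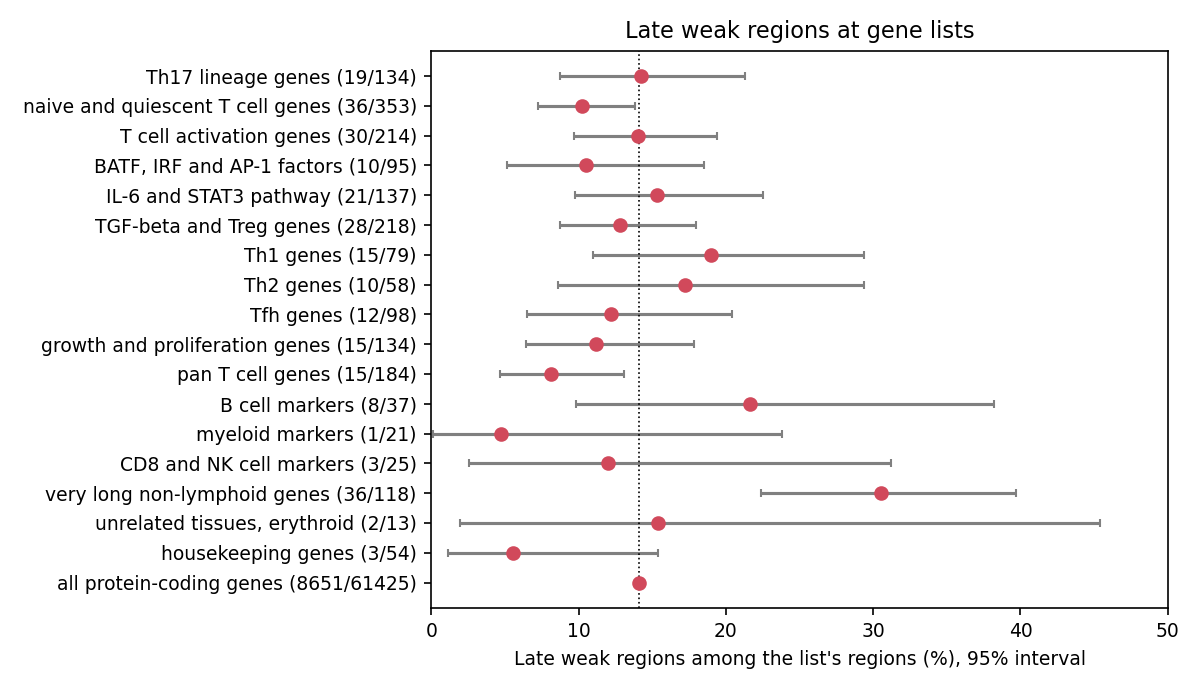
Late weak regions as a share of all regions within 10 kb of the genes of each list (x axis, %, with exact 95% intervals), one list per line with the numbers of late weak and all regions in brackets; the dotted line is the 14.1% of all protein-coding genes. The long non-lymphoid genes stand highest at 30.5%, and the Th17 lineage genes sit on the line at 14.2%.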

How the data were processed

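ATAC-seq was done on 6 libraries of 3 conditions. The submitters' processing notes name the peak caller MACS2 2.2.6, the aligner Bowtie2 2.3.4.1, deepTools and SAMtools 1.9, with builds GRCm38 and mm10, which name the same assembly. Not given in the sources used here are the peak threshold, filters, Tn5 shift and whether a list pools libraries. Positions in the lists are the authors' own, and the authors deposited peak positions and, at 48 h and 72 h, a score per peak whose scale is not stated. The naive list has no score, and 1 empty line in it was left out. Read depth is unknown.

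Peaks sharing 1 bp were merged (Python 3.11.15, pandas 2.3.3). Genes are 21887 protein-coding RefSeq genes of GRCm38.p6, with coordinates 1-based. A gene's regions overlap its body or 10 kb on either side, and neighbours can share them. Without a genome sequence, motifs planned around region middles were counted in RefSeq promoter windows, which cover no start on chromosome 18. Intervals of shares are exact Clopper-Pearson (SciPy 1.17.1). To sort the recomputed values, the difference from late strong regions had a normal-approximation interval and the median gap one from binomial ranks. The region scripts were tested on simulated peaks.

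The members, gene lists and motifs were chosen with earlier results of these data known. Named were the genes with most late weak regions overall and up to 4 per list, the 5 highest-scoring and 5 widest regions, those at Th17 genes and those near ends of list genes. Genes with none, the other single members of lists and homeobox and other families were named after values were seen. Alternatives varied merging, limits, widths and windows. Single values of a few list genes are not reported here.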

Additional observations from a re-analysis of the deposited data

How the results depend on the processing

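Late weak regions lay near gene ends more often than late strong ones under each of the 9 alternatives run for that difference, which was 5.91 percentage points, but its size and the number of regions depended on the peaks used. Of 69 recomputed values 27 stayed inside the interval of the value reported or, for counts, within 1.5 times it, and 42 did not. Only the difference from late strong regions could change direction, since the other values cannot be negative, and it did so under 0 of its 9 alternatives. The number of regions was 7831 with 72 h scores of at least 40, 3148 with each list cut to peaks no narrower than its median and 5978 with the 40624 widest peaks per list. As a share of all regions it was 14.1% with peaks within 200 bp merged, 16.2% with 72 h peaks largely uncovered by any naive or 48 h peak (coverage under 50%), 11.6% and 16.5% with limits of 60 and 100, 9.63% with scores of at least 40, 7.95% with the wider peaks and 9.23% with the widest 40624. The share near gene ends was 8.48% with peaks merged over 200 bp, 12.1% with the coverage rule, 11.5% with a limit of 60, 9.72% with scores of at least 40, 18% with the wider peaks, 11.9% with the widest 40624, and 6.16% and 15.7% with windows of 500 bp and 2 kb. The difference from late strong regions was 4.34 points with peaks merged over 200 bp, 2.50 with the coverage rule, 8.82 with the wider peaks, and 3.19 and 8.08 with windows of 500 bp and 2 kb. The share inside genes was 51.9%, 49.8% and 47.2% with merging over 200 bp, the coverage rule and the wider peaks, and the share between genes 39.6% with merging, 34.8% with the wider peaks and 37.0% with the widest 40624. The median gap to a naive or 48 h region was 6980 bp with merging, 4000 bp with the coverage rule, 5370 bp with a limit of 60, 10300 bp with the wider peaks and 6220 bp with the widest 40624, and the share within 10 kb 59.1%, 67.9%, 49.4% and 61.0% with merging, the coverage rule, the wider peaks and the widest 40624. Genes with a late weak region were 26.0% of all with a limit of 60, 54.1% with flanks of 50 kb and 20.3% in the gene body only, where 7 of the 18 Th17 genes had one. The causes of these shifts were not tested.

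No paired analysis was possible because 1 list per condition was analysed, with no replicate columns, and for the same reason no replicate was left out. Motif shares in 100 bp around the middle or in whole regions were not run, as no genome sequence was used here. A score limit of 60 kept the shares of promoter windows with AP-1, ETS or 20 or more CpG inside their intervals.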

Other observations

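Promoters of developmental regulators were among those with a late weak region, a group looked at after the promoters had been seen. Of 92 homeobox genes with a promoter window, 12 (13.0%, 95% interval 6.93 to 21.7%) had one, against 1.94% of all genes with a window. They were Dmbx1, Evx1, Hoxd1, Hoxd11, Irx3, Msx1, Msx2, Nkx6-1, Onecut1, Otp, Prox1 and Six3, which pattern limbs, brain and other organs in embryos. Their windows with a late weak region held no region of another class. Some had earlier open chromatin close by, with a naive or 48 h region 22 bp away at Irx3, 446 bp at Nkx6-1 and 529 bp at Msx1. At the other genes this gap ran from 6027 bp at Onecut1 to 197197 bp at Prox1. The late weak region overlapped the window by 4 bp at Prox1 and 16 bp at Irx3, and by up to 273 bp at Six3. Late strong regions lay in 0 of the 92, stable gains in 4 (4.35%), constant regions in 5 (5.43%) and no region in 68 (73.9%). Over all genes with a window these shares were 0.263%, 2.48%, 48.7% and 48.6%. The interval of the 0 late strong, 0 to 3.93%, includes the 0.263%. Among SOX, FOX, GATA and T-box genes, 4 of 54 had a late weak region in the window (Foxl2, Gata2, Sox2 and Tbx20), 4 a stable gain and 16 a constant region. Of ephrins and their receptors 3 of 21 had one (Efna1, Efna3 and Efna5), 3 a stable gain and 8 a constant region. Of neural bHLH genes 1 of 19 (Neurod1) and of the Klr group of NK receptors 3 of 24 (Klrc1, Klre1 and Klrk1) had a late weak region. A stable gain lay at 0 of either, with intervals up to 17.6% and 14.2% that include the 2.48% of all genes.

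Near miRNA genes, late weak regions were no more frequent than regions in general, with 26 of 11972 (0.217%, 0.142 to 0.318%) within 1 kb of a hairpin against 23 stable gains (0.215%), 116 constant regions (0.557%) and 0.288% of all regions. One with a score of 55, chr9:51103444-51103710, overlapped Mir34b and lay near Mir34c, which belong to a family known as p53 targets. Another, with a score of 30, overlapped Mir138-2. Within 1 kb of a hairpin but not over it were those near Mir31, with a score of 63, and Mir152, with 48. The one near Mir152 also overlapped the promoter window of Copz2.

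Scores in the 72 h list were uneven below the limit. Scores of 31, 38, 46, 55, 63 and 72 each held more than 2 times as many 72 h regions as either neighbouring score, over all 72 h regions as well as over those at 72 h only, and together 4527 late weak regions (37.8%). Of these, 6.76% (6.05 to 7.53%) lay near a gene end and 12.5% (11.6 to 13.5%) within 1 kb of a naive or 48 h region, against 12.9% (12.1 to 13.6%) and 30.5% (29.4 to 31.5%) of the regions at other scores. This split was chosen after seeing the data, and no cause was tested.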
